A study of Homo sapiens with 12 samples.

Results

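The BCL2-family genes that guard or open the mitochondrial outer membrane were followed in RNA-seq libraries of esophageal squamous cell carcinoma cells, 8 of the 38516 genes in the deposited table. They were chosen by name. The rows of BCL2, BCL2L1, BCL2L2, MCL1 and BCL2A1 encode 5 anti-apoptotic proteins, and those of BAX, BAK1 and BOK encode 3 pore-forming proteins. The rule of choice used no measured value, although earlier results of these data were known when it was made. All 8 were found, and 7 of them reached the expression needed for testing; BCL2A1 did not.

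The libraries came from 2 established human cell lines, KYSE150 and KYSE510, grown in RPMI-1640 with 10% fetal bovine serum. The groups were KYSE150 control, KYSE150 with HCP5 silenced, KYSE510 control and KYSE510 with HCP5 silenced, with 3 libraries in every group. HCP5 is a long non-coding RNA, and the series title ties it to apoptosis by way of c-Myc (the protein of MYC) and UTP3. All titles start with sh, in controls too; what it stands for, the silencing and control reagents, and the time from treatment to harvest are not given in the sources used here. Nothing states that replicates were separate cultures, so p-values measure the spread between these libraries, which may be technical.

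BCL2-family proteins decide whether the outer membrane of the mitochondrion stays closed. When BH3-only proteins signal damage or stress, BAX and BAK1 assemble into pores that release cytochrome c, which starts the caspase cascade. The anti-apoptotic proteins hold BH3-only proteins and activated BAX or BAK1 in inactive complexes. Squamous carcinomas are known for reliance on MCL1 and BCL-xL, the long protein form made from BCL2L1, more than on BCL2. These proteins are also controlled by splicing, turnover and location in the cell, none of which gene-level RNA shows.

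BAX and BOK were the members that differed most between the lines, in opposite directions, and the sequences upstream of their starts are shown for that reason. RefSeq promoter windows (GRCh38.p14) matched 6 members, BCL2A1, BCL2, BCL2L1, BAX, BAK1 and BOK, with 7 windows in all; MCL1 and BCL2L2 are only named. The 250 bases before each start were searched on both strands for CACGTG, the E-box that MYC and many other factors can bind, which reads the same on both strands. BAX held 4 copies, and the other 6 windows held 0. Of 35116 windows of the same length, 6.34% held at least 1 copy and 0.0142%, 5 windows, held at least 4. The stretches printed here end where annotated exons begin, with each E-box in capitals.
BAX, plus strand, chr19:48954625-48954814: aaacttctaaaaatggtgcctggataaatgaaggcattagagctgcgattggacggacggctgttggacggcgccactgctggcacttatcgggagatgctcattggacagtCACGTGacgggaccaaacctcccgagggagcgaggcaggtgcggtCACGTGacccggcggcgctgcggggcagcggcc
BOK, plus strand, chr2:241558495-241558720: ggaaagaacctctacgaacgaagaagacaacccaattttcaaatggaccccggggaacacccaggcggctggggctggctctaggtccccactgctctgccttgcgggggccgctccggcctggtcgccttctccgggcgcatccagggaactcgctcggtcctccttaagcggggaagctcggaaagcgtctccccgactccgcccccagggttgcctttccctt
Counted from the first base of each copy, the BAX copies lay 138, 93, 45 and 14 bases before the RefSeq start. The 2 copies nearest to the start touch annotated exons and are shown only with their flanks.
BAX copy at 45 bases, plus strand, chr19:48954820-48954845: gcggggcggcCACGTGaaggacgcac
BAX copy at 14 bases, plus strand, chr19:48954851-48954874: gcggggctctCACGTGacccgggc
A STAT-type motif, TTCNNNGAA, occurred 1 time in the BCL2A1 window and in none of the others, against 6.57% of all windows. The TATA motif TATAAA occurred 2 times in the first BCL2L1 window and 1 time in BCL2A1, where 10.7% of all windows held at least 1 copy. These matches describe letters in a window and say nothing of binding in these cells.

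Values are RPKM, which are read counts scaled to exon length and library depth, as deposited. They rest on 20035025 to 28202422 recovered reads per library, and every silenced library of KYSE150 was deeper than every control of that line. HCP5 had an RPKM of 0.745 to 0.786 in KYSE150 controls against 0.315 to 0.579 after silencing, and of 0.914 to 1.85 against 0.505 to 0.951 in KYSE510. Silenced libraries had the lower value in 6 of 6 same-numbered pairs. For the mean over lines limma gave an adjusted p of 0.185. It became 0.0295 with the replicate number as a block, where 2.74% of all genes passed. HCP5 passed in neither line alone with these fits. Its limma adjusted p was 0.267 in KYSE150 (blocked 0.0556) and 0.646 in KYSE510 (blocked 0.134). Of its 3138 exon bases 219 are shared with other genes, 62 of them with MICA (8.64 to 11.9 RPKM). The first principal component, with 82.9% of the variance, separated the lines. On the second, the other KYSE150 controls scored -22.2 and -34.1, while control replicate 3 scored inside the range of the silenced libraries (-2.97 to 30.6). All 8 squamous epithelial markers checked reached 0.5 RPKM, although SOX2 did so only in KYSE510. Leukocyte markers summed to at most 0.433 RPKM, and 1 of 5 fibroblast and 1 of 3 endothelial markers reached 0.5 RPKM, COL1A1 and CDH5, both in KYSE510.

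**Figure D1:**
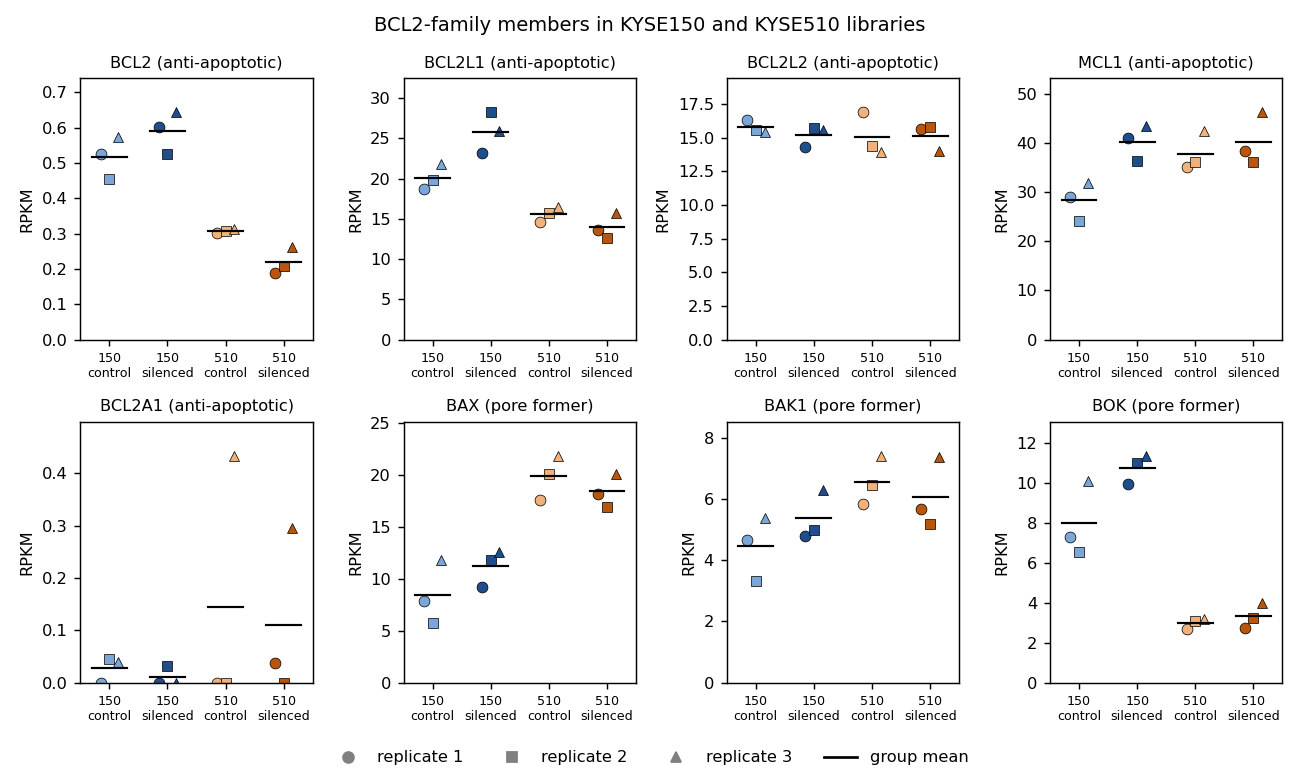
RPKM of each member (vertical axes, linear, from 0, scaled per gene) in the 12 libraries, by group, with the replicate number as the symbol and the group mean as a line. BAX and BAK1 lie higher and BOK, BCL2L1 and BCL2 lower in KYSE510 controls than in KYSE150 controls, and replicate 3 is the highest library of many groups.

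MCL1, an unstable guardian of BAK1, was the highest member in every group. KYSE150 controls had 29.0, 24.2 and 31.8 RPKM, against 41.0, 36.3 and 43.4 after silencing. The groups did not overlap, and the mean went from 28.4 ± 3.84 to 40.3 ± 3.60 (SD, n = 3), 1.42 times. KYSE510 controls had 35.1, 36.1 and 42.4 RPKM, against 38.3, 36.3 and 46.3 after silencing, which overlap. MCL1 lies on the minus strand of chromosome 1 at 150574551 to 150579738 (GRCh38), with 4371 exon bases, and shares 2 of them with ADAMTSL4-AS1.

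BCL2L1 encodes BCL-xL and, by another splice form, the pro-apoptotic BCL-xS; gene-level values do not separate them. KYSE150 controls had 18.7, 19.9 and 21.8 RPKM, against 23.1, 28.2 and 26.0 after silencing, so every silenced library lay above every control. KYSE510 controls had 14.6, 15.7 and 16.4 RPKM, against 13.6, 12.7 and 15.7 after silencing, where the silenced library was the lower of each pair. BCL2L1 lies on the minus strand of chromosome 20 at 31664452 to 31723989. Of its 3314 exon bases, 1424 (43.0%) are also exon of ABALON on the opposite strand. The use of strand in counting is not given in the sources used here, so reads in that stretch cannot be assigned to either gene. ABALON was also the tested gene with the pattern most like that of BCL2L1 over the 12 libraries. Of the 1903 exon bases of ABALON, 74.8% are exon of BCL2L1, so the likeness may rest on shared reads, which was not tested.

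BCL2L2 encodes BCL-w, a close relative of BCL-xL. Its RPKM stayed between 13.96 and 16.86 in all 12 libraries, the narrowest range relative to its level among the tested members. The means were 15.8 ± 0.487 and 15.2 ± 0.788 in KYSE150 control and silenced libraries and 15.1 ± 1.57 and 15.1 ± 0.983 in KYSE510 (SD, n = 3). The gene occupies chromosome 14 from 23298790 to 23311759, plus strand. Of its 4189 exon bases, 206 are shared with PPP1R3E on the opposite strand. A further 813 (19.4%) also belong to the readthrough gene BCL2L2-PABPN1. That gene had 2600 to 3617 reads per library with 82 exon bases of its own, so reads in shared exons were probably counted for it. The BCL2L2 values may likewise include readthrough reads. How reads of shared exons were assigned is not given in the sources used here.

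BCL2, the founder of the family, was a minor transcript. KYSE150 controls had 0.526, 0.455 and 0.573 RPKM, against 0.602, 0.524 and 0.643 after silencing. KYSE510 controls had 0.300, 0.306 and 0.312 RPKM, against 0.188, 0.209 and 0.263 after silencing. Every silenced KYSE510 library lay below every control there, while the KYSE150 groups overlapped. Each library gave it 52 to 204 reads over 11765 exon bases on the minus strand of chromosome 18 at 63123346 to 63320128. BCL2 passed the expression filter through KYSE150 libraries alone.

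BCL2A1, an NF-kappaB target best known in blood cells, was at or under 1 read in 10 of 12 libraries. The exceptions were replicate 3 of the KYSE510 control, with 13 reads (0.434 RPKM, exact 95% Poisson interval 0.231 to 0.742), and replicate 3 of KYSE510 silenced, with 8 reads (0.295 RPKM, 0.127 to 0.582). The intervals cover counting error only, since copies made by PCR are not independent. For a library with 0 reads, 3 reads would be 0.102 to 0.138 RPKM over the 1089 exon bases of the gene on chromosome 15 at 79960889 to 79971446. BCL2A1 was not tested.

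BAX, the pore former that moves from the cytosol to mitochondria, had 7.89, 5.78 and 11.8 RPKM in KYSE150 controls, against 9.18, 11.8 and 12.6 after silencing. The control of replicate 3 lay among the silenced libraries. KYSE510 controls had 17.6, 20.1 and 21.9 RPKM, against 18.2, 16.9 and 20.2 after silencing, and the groups overlap. BAX occupies chromosome 19 from 48954815 to 48961798, plus strand, and its 2587 exon bases are shared with no other gene.

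BAK1, the pore former that sits in the mitochondrial membrane, was the most even of the 3. KYSE150 controls had 4.65, 3.33 and 5.38 RPKM, against 4.80, 5.001 and 6.30 after silencing. KYSE510 controls had 5.83, 6.44 and 7.41 RPKM, against 5.67, 5.18 and 7.36 after silencing. Control and silenced ranges overlapped in both lines. The gene lies on the minus strand of chromosome 6 at 33572547 to 33580293, and 91 of its 2212 exon bases are shared with GGNBP1 on the opposite strand.

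BOK, a relative of BAX and BAK1 whose protein level is set largely by degradation, had 7.29, 6.53 and 10.1 RPKM in KYSE150 controls, against 9.95, 10.98 and 11.4 after silencing. Here too the control of replicate 3 was the one that overlapped the silenced libraries. KYSE510 controls had 2.71, 3.08 and 3.19 RPKM against 2.76, 3.24 and 4.01 after silencing. BOK occupies chromosome 2 from 241558721 to 241574138, plus strand, and 201 of its 2657 exon bases are shared with BOK-AS1 on the opposite strand.

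By mean RPKM, the order in KYSE150 controls was MCL1 (28.4), BCL2L1 (20.1), BCL2L2 (15.8), BAX (8.49), BOK (7.97), BAK1 (4.45), BCL2 (0.518) and BCL2A1. The ranges of BAX and BOK overlapped and those of all other neighbours did not. In KYSE510 controls the order was MCL1 (37.9), BAX (19.9), BCL2L1 (15.6), BCL2L2 (15.1), BAK1 (6.56), BOK (2.99), BCL2 (0.306) and BCL2A1. Here BAX stood second, with every library above those of BCL2L1, and the ranges of BCL2L1 and BCL2L2 overlapped, as did those of BCL2 and BCL2A1.

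The differences between control lines were larger than the spread between replicates for 5 of the 6 members that reached the expression needed for testing in both lines. With limma, 3 were higher in KYSE510 and 2 lower, at an adjusted p under 0.05 over all 17823 genes. BCL2 also passed (6 of 7), but it reached 0.5 RPKM in KYSE150 only, so it had to be lower in KYSE510 and is left out of the count; with a filter at an RPKM of 1 it was not tested and 5 of 6 passed. The lines differed at 62% of all genes tested, 28.3% higher and 33.7% lower, so 5 of 6 is a count to be read against a high background. BAX was 2.34 times higher in KYSE510 by means (19.9 ± 2.13 against 8.49 ± 3.05 RPKM, SD, n = 3), a log2 difference of 1.23 (SE 0.21, limma adjusted p = 0.000305). BOK was 2.66 times lower, 2.99 ± 0.253 against 7.97 ± 1.88 RPKM (SD, n = 3), a log2 difference of -1.26 (SE 0.15, limma adjusted p = 2.84e-05). Here and below, log2 differences are of log2(RPKM + 0.5), which understates those of low genes such as BCL2.

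BAK1 was 1.47 times higher in KYSE510 controls (log2 difference 0.53, SE 0.17, limma adjusted p = 0.0205) and MCL1 1.34 times higher (0.42, SE 0.13, adjusted p = 0.0133). Both calls were lost without KYSE150 control replicate 2 (0.35 and 0.31 on the log2 scale, in a fit that called 59.5% of genes) or without KYSE510 control replicate 3 (0.44 and 0.33, 57.1% of genes). BCL2L1 was 1.29 times lower (log2 difference -0.36, SE 0.10, limma adjusted p = 0.00892). For BCL2, given as a description, the control means differed 1.69 times, a log2 difference of -0.34 (-0.75 with voom on recovered reads). BCL2L2 did not pass (-0.07, SE 0.08, limma adjusted p = 0.498). The 5 other called members had control groups that did not overlap, as did 64% of all genes, and exact two-sided permutation tests gave 0.1 for each, the smallest p that 3 against 3 allows. In bulk RNA, fewer cells of a kind and less RNA per cell cannot be told apart.

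These levels gave the lines a different make-up of pore formers. BAX made 40.0% ± 3.15 of the summed RPKM of the 3 pore formers in KYSE150 controls and 67.5% ± 0.286 in KYSE510 controls (SD, n = 3). BOK made 38.5% ± 2.81 and 10.2% ± 0.324, and BAK1 21.5% ± 1.87 and 22.3% ± 0.545 (SD, n = 3). The ratio of BAX to BOK was 1.05 ± 0.145 in KYSE150 controls and 6.63 ± 0.199 in KYSE510 controls. BAX to BCL2L1 went the same way, 0.418 ± 0.125 against 1.27 ± 0.0623, with no overlap between the lines. BCL2L1 shares 43.0% of its exon bases with ABALON, whose mean was also lower in KYSE510 controls (18.4 against 25.2 RPKM). These ratios are descriptions with no test.

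Among anti-apoptotic members MCL1 made 43.6% ± 2.92 of the summed RPKM in KYSE150 controls and 54.8% ± 2.63 in KYSE510 controls (SD, n = 3). BCL2L1 made 31.1% ± 2.04 and 22.6% ± 0.947, and BCL2L2 24.4% ± 1.98 and 21.9% ± 3.13. BCL2 made under 1% in both, 0.798% and 0.445%. The sum of pore formers over the sum of anti-apoptotic members was 0.319 ± 0.0666 in KYSE150 controls and 0.426 ± 0.0304 in KYSE510 controls. The highest KYSE150 value and the lowest KYSE510 value were both 0.391 to 3 digits, and the ranges overlapped by less than that.

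**Figure D2:**
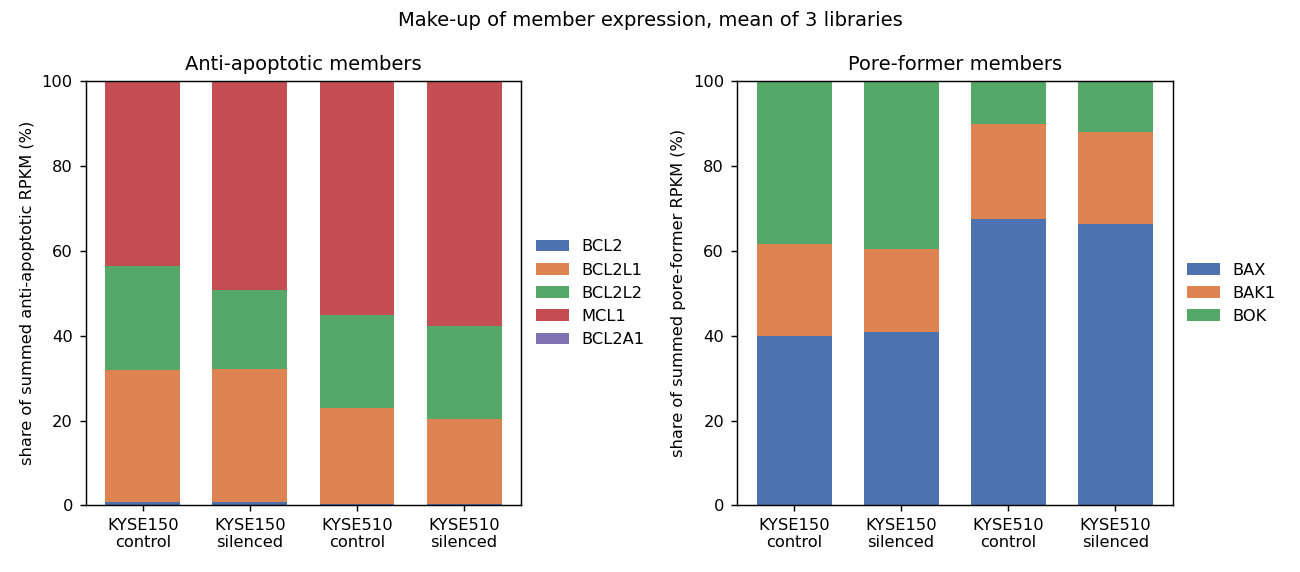
Share of each member in the summed RPKM (vertical axes, %) of the 5 anti-apoptotic members (left) and the 3 pore formers (right), as means of the 3 libraries of each group, stacked to 100. BAX takes 40.0% of the pore formers in KYSE150 controls and 67.5% in KYSE510 controls, while BOK takes 38.5% and 10.2%; after silencing BAX takes 40.9% and 66.3%.

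The next comparison asked whether silencing HCP5 moved these genes in KYSE150. MCL1 and BCL2L1 were higher in all 3 pairs with no overlap between groups, and with all libraries in the fit they passed with the replicate block but not without it. Without the block 0 of 7 members passed with limma, against 0.499% of all genes (89, 67 higher and 22 lower). After centring each library on its median, 54 genes were higher and 62 lower. An unadjusted p under 0.05 was found for 3 members and for 3224 of the 17823 genes. Voom on recovered reads without the block also gave 0 members, against 128 genes. Same-numbered control and silenced libraries deviated together, so the block is given beside each call it changes. The correlation of deviations from group means was lowest for KYSE150 pair 2 (0.147). Control replicate 2 of that line correlated more with silenced replicate 1 (0.184). With it 2 of 7 members rose, and 6.7% of all genes passed, 5.04% higher. Voom on recovered reads with the block added BOK (3 of 7, against 17.8% of genes). Centring moved the median change of all genes in KYSE150 from 0.08 to -0.05 on the log2 scale.

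The log2 change of MCL1 in KYSE150 was 0.50 (SE 0.13). Its limma adjusted p was 0.101, and the replicate block brought it to 0.0126. Its pairs gave 0.49, 0.57 and 0.44, and after median centring the change was 0.37. BCL2L1 had 0.35 (SE 0.10). Its limma adjusted p was 0.136, and the block brought it to 0.0437; its pairs gave 0.30, 0.49 and 0.25. ABALON, which shares exon bases with it, had a change of 0.25 (limma adjusted p = 0.180, blocked 0.0460). The blocked calls of both members were lost when any KYSE150 pair was left out, at limma adjusted p of 0.0522 to 0.0887 for MCL1 and 0.0803 to 0.146 for BCL2L1. Those smaller fits called few genes of any kind, 0%, 0.251% and 0.321% of all genes without pair 1, 2 and 3, against 6.7% with all pairs. Leaving out a KYSE510 pair, which lends its spread to the fit, left MCL1 alone past the threshold, in fits that called 2.73%, 1.04% and 1.04% of all genes. Groups that did not overlap, as for these 2 members, were found at 19.2% of genes, 13.7% with silenced libraries higher.

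The pore formers were higher in all 3 KYSE150 pairs, each short of the threshold, and 37.4% of all genes were higher in all 3. BOK had a log2 change of 0.43 (SE 0.15, limma adjusted p = 0.198, blocked 0.0613), with pairs at 0.42, 0.71 and 0.16. BAX had 0.43 (SE 0.21, limma adjusted p = 0.300, blocked 0.136), and its pairs ranged from 0.10 to 0.97. BAK1 had 0.26 (SE 0.17, limma adjusted p = 0.446). For BCL2 the value was 0.10 (SE 0.10, limma adjusted p = 0.626), and for BCL2L2 -0.05 (SE 0.08, limma adjusted p = 0.776). The median over the 7 members was 0.35, beside 0.08 over all genes.

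KYSE150 control replicate 3 bears on these values. Without that library 3 of 7 members passed with limma and no block, MCL1 (0.59, adjusted p = 0.0361), BAX (0.68, adjusted p = 0.0398) and BOK (0.60, adjusted p = 0.0360), while BCL2L1 had 0.40 (adjusted p = 0.0513). In the same fit 7.31% of all genes passed, against 0.499% with the library. Replicate 3 was the highest library in 4 of 4 groups for MCL1, BCL2, BAX, BAK1 and BOK, a pattern found at 12.9% of all genes. It was the lowest in 3 of 4 groups for BCL2L2.

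**Figure D3:**
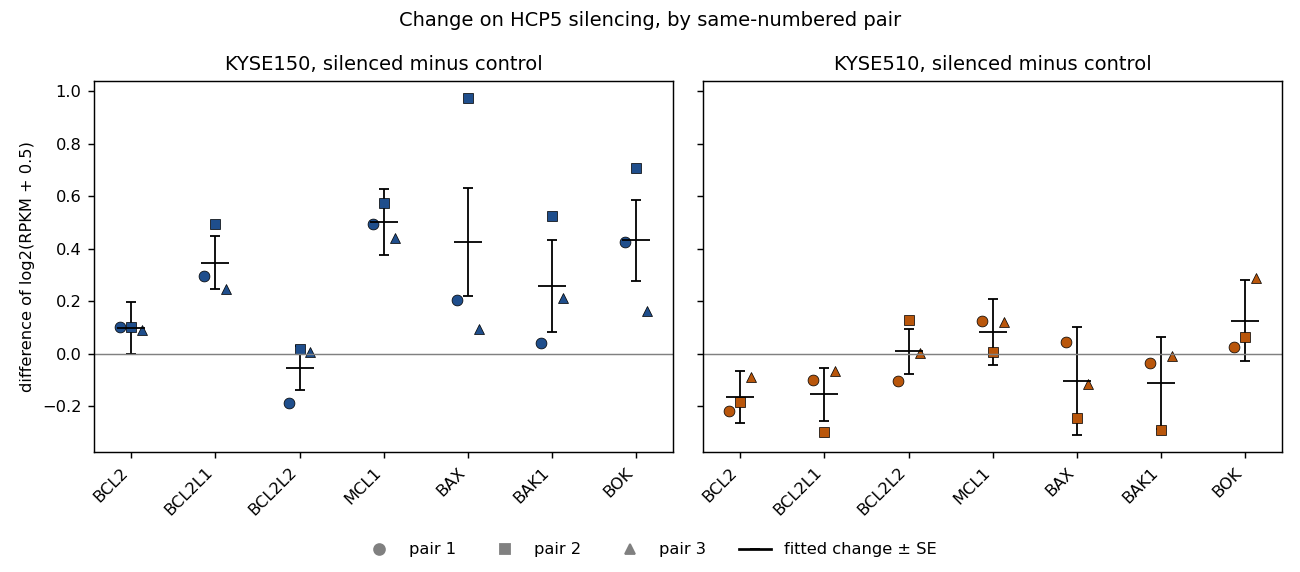
Silenced minus control difference of log2(RPKM + 0.5) (vertical axis) for each tested member, KYSE150 left and KYSE510 right, with a symbol for each same-numbered pair and a bar for the fitted change with its SE. MCL1 lies at 0.44 to 0.57 in the KYSE150 pairs and at 0.01 to 0.12 in the KYSE510 pairs, and BCL2L1, BCL2 and BAK1 lie above 0 on the left and below 0 on the right.

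In KYSE510 no member passed, and BCL2 alone had silenced libraries apart from controls. With limma 0 of 7 passed, against 0.0393% of all genes. An unadjusted p under 0.05 was found for 0 members and for 1132 genes. With the replicate block 0 members passed, against 0.112% of all genes, and with voom on recovered reads 0 passed, against 5 genes. BCL2 had 0.306 ± 0.00584 RPKM in controls and 0.220 ± 0.0388 in silenced libraries (SD, n = 3). Its log2 change was -0.16 (SE 0.10, limma adjusted p = 0.893; exact permutation p = 0.1), and 6.87% of all genes had silenced libraries wholly below controls. BCL2L1 had -0.15 (SE 0.10, limma adjusted p = 0.912), BAK1 -0.11 (SE 0.17, adjusted p = 0.968) and BAX -0.10 (SE 0.21, adjusted p = 0.976). MCL1 had 0.08 (SE 0.13, limma adjusted p = 0.965), BOK 0.13 (SE 0.15, adjusted p = 0.957) and BCL2L2 0.01 (SE 0.08, adjusted p = 1). BCL2, BCL2L1 and BAK1 were lower in all 3 pairs, as were 21.8% of genes.

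Averaged over the lines, 0 of 7 members passed with limma, against 0.539% of all genes. An unadjusted p under 0.05 was found for 2 members and for 2043 genes. Voom without the block also gave 0 members, against 129 genes. MCL1 had a mean log2 change of 0.29 (SE 0.09, limma adjusted p = 0.210). It passed under the block (adjusted p = 0.0170), where 2.74% of all genes did, and with voom on recovered reads and the block, where 6.83% did. The blocked call was lost without KYSE150 pair 1 or any of the KYSE510 pairs, at adjusted p of 0.0650 to 0.0820, in fits that called 0.216% of all genes without KYSE150 pair 1 and 0.494%, 0.37% and 0.274% without KYSE510 pair 1, 2 and 3. BOK had 0.28 (SE 0.11, limma adjusted p = 0.359, blocked 0.111). MCL1 and BOK were higher in 6 of 6 pairs, as were 6.7% of all genes.

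The change on silencing was then compared between the lines as an interaction. No member passed, and 0% of all genes did, with or without the block; 2 members had an unadjusted p under 0.05, as did 2181 genes. BCL2L1 had a log2 change that differed by -0.50 in KYSE510 relative to KYSE150 (SE 0.14, limma adjusted p = 0.394, blocked 0.117). For MCL1 the difference was -0.42 (SE 0.18, limma adjusted p = 0.401, blocked 0.109). With voom on recovered reads and the block, both passed (limma adjusted p = 0.0258 and 0.0245), in a fit where 6.68% of genes did. The differences of BAX (-0.53, SE 0.29), BAK1 (-0.37, SE 0.25), BOK (-0.31, SE 0.22) and BCL2 (-0.26, SE 0.14) had limma adjusted p from 0.432 to 0.526.

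The ratio of the 2 sums overlapped between control and silenced libraries in both lines. In KYSE150 the summed anti-apoptotic RPKM was 64.8 ± 4.77 in controls and 81.8 ± 3.35 in silenced libraries, and the pore-former sum 20.9 ± 5.90 and 27.4 ± 3.22 (SD, n = 3). Their ratio was 0.319 ± 0.0666 and 0.334 ± 0.0273. In KYSE510 the ratio was 0.426 ± 0.0304 and 0.399 ± 0.0118. MCL1 to BCL2L1 was 1.41 ± 0.171 and 1.58 ± 0.257 in KYSE150, and 2.43 ± 0.146 and 2.88 ± 0.0667 in KYSE510 (SD, n = 3), where the groups did not overlap. Within the anti-apoptotic sum of KYSE150, BCL2L2 went from 24.4% ± 1.98 to 18.6% ± 0.783, while its own mean was 15.8 and 15.2 RPKM. These are descriptions with no test.

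Other genes of the pathway were read from lists by role, beside the shares of all genes called. These were 0.499% in KYSE150, 0.0393% in KYSE510 and 0.539% averaged over lines without the block, and 6.7%, 0.112% and 2.74% with it. Of 7 tested BH3-only initiators, the sensors that neutralise anti-apoptotic members or activate BAX and BAK1, 0 passed in either line without the block. With it PMAIP1, which encodes the MCL1-binding protein NOXA, rose by 0.40 in KYSE150 (limma adjusted p = 0.0287) while none passed in KYSE510. Of 4 tested other relatives, BNIP3, a mitophagy receptor, rose by 0.44 averaged over lines (SE 0.08, limma adjusted p = 0.0486), and BNIP3L by 0.58 in KYSE150 with the block (adjusted p = 0.0261). Of 11 membrane partners and released factors, VDAC2, the channel that holds BAK1 at the membrane, fell by 0.25 (limma adjusted p = 0.0352) and HTRA2 rose by 0.38 (adjusted p = 0.0426), both in KYSE150 with the block. Averaged over lines with the block, PMAIP1, BNIP3 and BNIP3L were called higher and VDAC2 lower, in a fit that called 2.74% of all genes. The blocked KYSE150 calls of PMAIP1, BNIP3L, VDAC2 and HTRA2 were each lost without any 1 of the KYSE150 pairs (limma adjusted p = 0.0679 to 0.150). Those fits called at most 0.321% of all genes. The call of BNIP3 without the block held in 2 of 12 fits that left out 1 library (limma adjusted p = 0.0433 to 0.129). These fits called 0.243% to 0.793% of all genes. Of 8 tested genes of MCL1 and BAX turnover, 0 passed in any silencing comparison, with or without the block.

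MYC, named in the series title, was 1 of 12 transcription factors listed. It rose by 0.27 in KYSE150 with the block (limma adjusted p = 0.0439, and 0.620 without it; 0.0733 to 0.141 without any 1 of the KYSE150 pairs), and had -0.14 in KYSE510 (limma adjusted p = 0.975). No other factor on the list passed on silencing. The median change in KYSE150 was 0.14 for BH3-only initiators, 0.19 for other relatives, 0.09 for partners and released factors, -0.01 for turnover genes and 0.09 for transcription factors, beside 0.08 over all genes. For squamous epithelial markers, without the block 0 of 8 passed in either line. TP63 alone passed averaged over lines (0.32, limma adjusted p = 0.0483), where 0.539% of all genes did. With the block 7 of 8 rose in KYSE150, where 5.04% of all genes did, and 1 of 8, KRT14, in KYSE510. The KYSE150 calls were lost without KYSE150 pair 1, in a fit that called 0% of all genes. The summed RPKM of these markers in KYSE150 was 537 to 1181 in controls and 843 to 2254 after silencing. The part of these markers in the member values was not tested.

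**Figure D4:**
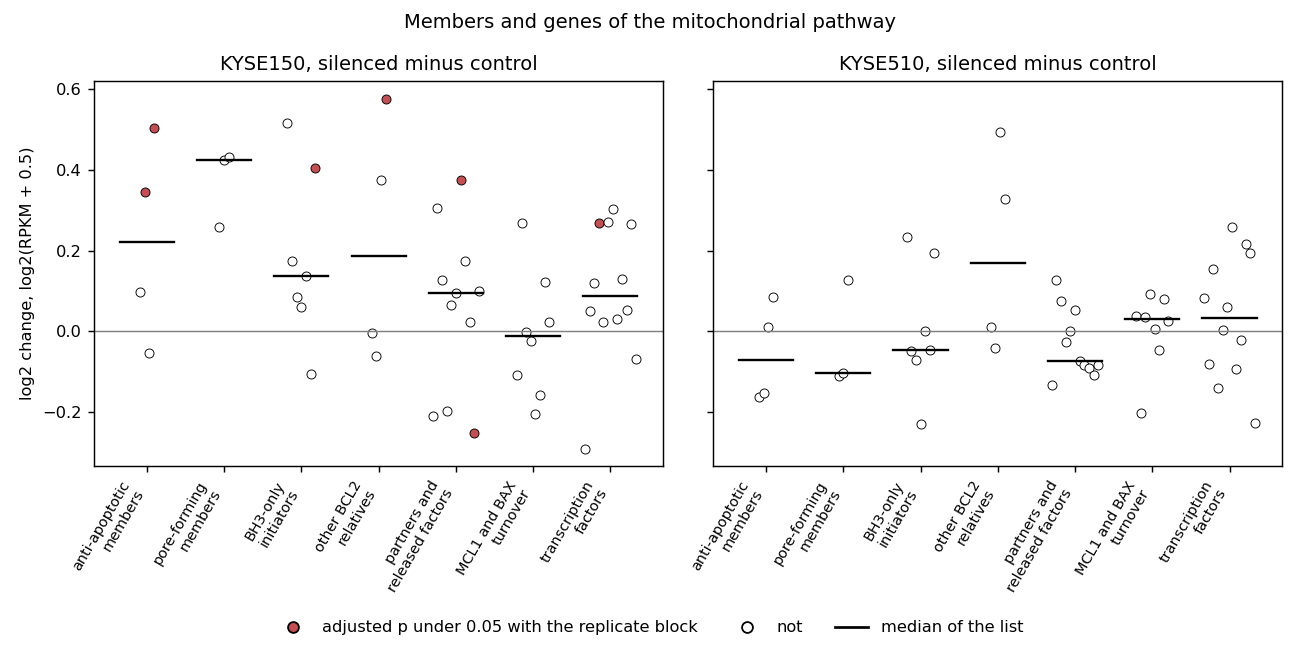
Fitted log2 change on silencing (vertical axis, log2(RPKM + 0.5)) of every tested gene of 7 lists, KYSE150 left and KYSE510 right; filled points had a limma adjusted p under 0.05 with the replicate block and lines are list medians. MCL1 and BCL2L1 are the filled members in KYSE150, and no gene of these lists is filled in KYSE510.

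Between control lines many genes of the same lists differed, as 62% of all genes did. Of 7 BH3-only initiators, 4 were higher in KYSE510 and 0 lower: BIK (log2 difference 2.27, SE 0.25, limma adjusted p = 1.22e-05), BID (0.85, SE 0.16, adjusted p = 0.00081), PMAIP1 (0.71, SE 0.15, adjusted p = 0.00191) and BCL2L11. Among other relatives BNIP3 was higher by 1.99 and BCL2L12 by 0.98, and BCL2L13 lower (-0.40), all with a limma adjusted p under 0.05. Of 11 partners and released factors, 2 were higher, VDAC3 (0.91) among them, and 3 lower, with ENDOG (-0.73) and AIFM1 (-0.30). Of 8 turnover genes, 2 were lower, CUL5 (-1.15), a ubiquitin ligase scaffold, and BTRC (-0.28). Of 12 transcription factors 7 were higher, among them STAT5A, which reached 0.5 RPKM in KYSE510 only and so had to be higher there. MYC was 9.03 times higher by means (log2 difference 3.14, SE 0.27, limma adjusted p = 1.47e-06), and HIF1A differed by 1.77 and STAT3 by 0.83 on the log2 scale. The comparison of control lines and that of silencing in KYSE150 share the KYSE150 controls, and no count across the 2 is drawn.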

How the data were processed

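RNA-seq was read from 12 libraries, 3 per group. The values are RPKM that the authors deposited for 38516 genes, with positions and exon lengths. The submitters' processing notes name HISAT2, DESeq and GRCh38, without roles; counting settings and strand use are not given in the sources used here. RPKM multiplied by length gave whole reads for 100% of values (tolerance 0.05), totalling 20035025 to 28202422 per library. Between replicates the chi-square was 10.3 to 36.6 per gene, so none was counted as a copy.

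The 17823 genes that reached 0.5 RPKM in 3 or more libraries were tested. limma 3.58.1 in R 4.3.3 was fitted to log2(RPKM + 0.5) with 4 group means, eBayes with a trend, two-sided p-values and Benjamini-Hochberg adjustment over all genes (threshold 0.05, 8 residual degrees of freedom). The fit was checked on simulated reads drawn independently for each library, so the check does not cover libraries that deviate together. Replicate numbers come from the titles. Deviations from group means correlated at 0.147 to 0.415 in 6 of 6 same-numbered pairs and at -0.385 to 0.184 otherwise. The lowest same-numbered value and the highest other value both belonged to KYSE150 control replicate 2. On these values numbers were taken to pair libraries within a line, so the pairing was judged on the data it was applied to. A fit with a replicate block, which leaves 4 residual degrees of freedom, stands beside. The contrast of control lines lies between blocks and has no blocked value. The members and the gene lists were chosen with earlier results of these data known. All members are named. From each list up to 3 genes per comparison past the threshold are named by adjusted p, beside HCP5. Between control lines more than 3 are named, outside that rule, for the BH3-only initiators and the transcription factors. Genes that passed with the block were named after their values were seen. For each member the tested gene with the nearest centred pattern is named. Alternatives changed the pseudocount, filter, trend, scaling, samples in the fit and block, used voom on recovered reads, and left out each library. The planned comparison of protein sequences was not run, and 1 gene of the transcription factor list is not reported here.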

Additional observations from a re-analysis of the deposited data

Results flagged for a closer look

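BCL2L1, BCL2 and BAK1 were higher in the silenced library of all 3 KYSE150 pairs and lower in all 3 KYSE510 pairs, which is why their difference between lines was singled out. The KYSE510 change minus the KYSE150 change was -0.50 for BCL2L1, -0.26 for BCL2 and -0.37 for BAK1 on the log2 scale. The interaction was tested with limma, and the adjusted p-values were 0.394, 0.432 and 0.497, and 0.117, 0.224 and 0.177 with the replicate block. Opposite directions in all pairs of the 2 lines were found at 10.2% of all genes tested. Of these members BCL2L1 passed in an alternative, voom with the block (limma adjusted p = 0.0258), in a fit that called 6.68% of all genes. The pairs that singled out these members also gave these values, so the values are not independent of the choice.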

How the results depend on the processing

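Across 772 alternatives for the changes of single members, 747 kept direction and side of the threshold, 12 gained a call, 4 lost one and 9 changed sign. The count of members called in KYSE150 was 0, in a fit that called 0.499% of all genes. It became 2 with the replicate block (6.7% of all genes) and 3 with voom on recovered reads and the replicate block (17.8%). It was 0 to 3 when 1 library was left out, and 3 came without KYSE150 control replicate 3 (7.31% of all genes). The count for the mean over lines was 0, where 0.539% of all genes passed. It went to 1 with the replicate block (2.74% of all genes) and to 1 with voom and the block (6.83%). The difference between lines went from 0 to 2 with voom and the block, which called 6.68% of all genes there. With the replicate block no other call changed. The 6 calls between control lines, BCL2 included, ranged from 4 to 6 when 1 library was left out. The count was 4 without KYSE150 control replicate 2 or KYSE510 control replicate 3. Those fits called 59.5% and 57.1% of all genes, against 62% with all libraries. The change of BCL2 in KYSE150 turned to -0.0315 under median centring. When 1 library was left out, values near 0 changed sign: BCL2L2 in KYSE510 ranged from -0.0405 to 0.0913, BCL2L2 over lines from -0.0472 to 0.0188, MCL1 in KYSE510 from -0.0181 to 0.168 and BAK1 over lines from -0.0135 to 0.141. The cause was not tested. The fits that left out a pair were chosen after seeing the data. Depth limits BCL2A1, at 0 or 1 read in 10 libraries.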

Other observations

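Among the 17823 genes tested, those whose centred pattern over the 12 libraries lay nearest to a member differed from it by a root mean square of 0.0493 to 0.118 on the log2 scale. The nearest gene was TIMP1 for BOK (0.0858, beside 0.743 for the size of BOK's own pattern) and RBM42 for BAX (0.118, beside 0.558). It was RBMS1 for MCL1 (0.0784, beside 0.248), PIGG for BCL2 (0.0580, beside 0.249) and ABALON for BCL2L1 (0.0681, beside 0.348). ABALON shares 1424 exon bases with BCL2L1, so their likeness may rest on shared reads. BAK1 lay nearest to RP11-172H24.4 (0.0493, beside 0.277), and BCL2L2, whose own pattern was small (0.0821), to SDHAF3 (0.0502). These are descriptions with no test, over libraries of 2 lines.

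BCL2A1 had 13 and 8 reads in replicate 3 of the KYSE510 control and silenced groups and 0 or 1 read in every other library.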
